A study of Mus musculus with 8 samples.

Results

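The 10 AP-1 genes Fos, Fosb, Fosl1, Fosl2, Jun, Junb, Jund, Atf3, Batf3 and Maff were followed in mouse liver ductal cells as these were moved into organoid culture. They were chosen by name, as members of the AP-1 family and its close dimer partners, and make up 10 of the 47729 genes in the expression table. The source of all cells was healthy adult liver of male C57/B6 mice, from which they were isolated by flow cytometry for EpCAM, an adhesion protein on the surface of bile duct epithelium. No genetic change or drug distinguishes the groups, which differ only in culture. The fresh group (0 h, 2 libraries) was taken straight after the sort. The other groups were grown in Matrigel, a basement membrane gel, with organoid medium for 12 h (2 libraries), 24 h (1 library) or 6 days, by which time the cells had formed organoids (2 libraries). A further library is titled 48h, but its other labels give 24 h, so it was kept apart under its title. Whether replicates are separate animals is not in the labels, and p-values therefore reflect only the scatter among these libraries, which may be technical. The labels do not give the number of cells per library.

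AP-1 is a dimeric transcription factor built from basic leucine zipper proteins. Jun proteins pair with each other or with Fos proteins, whereas Fos proteins bind DNA only after pairing with a partner such as Jun. The dimers recognise the TRE, a short palindrome in promoters and enhancers, and ATF members favour the related CRE. Fos, Jun and Atf3 are classical immediate early genes, switched on within minutes by growth factors, wounding or enzymatic dissociation, through serum response factor, CREB and MAP kinases. Fosl1 and Fosl2 lack the strong activation domain of Fos and follow it more slowly, and Jund is expressed broadly in resting cells. In the liver, Jun family proteins are known for roles in regeneration and injury.

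Expression was deposited as RPKM, that is, read numbers per gene length and sequencing depth, and the values correspond to between 13833143 and 28468920 effective reads per library. Genes at 1 RPKM or more numbered 8814 in the 24 h library and between 10605 and 11263 in the other 7. Of the 7 ductal markers, 6 or 7 were at 1 RPKM or more in each library, Epcam, Krt19 and Sox9 among them in every library. Their sum was 8723 to 20370 RPKM, most of it from Spp1, at 5841 to 17735 RPKM. Cftr was the low one, at 5.72 and 9.81 RPKM in fresh cells and 0.406 and 1.93 RPKM at 12 h. It was at 0.617 RPKM at 24 h, 1.55 RPKM in the 48h-titled library and 0.186 and 0.554 RPKM in organoids. Hepatocyte markers moved with culture: the 8 of them summed to 958 and 946 RPKM in fresh cells, 37.6 and 49.7 at 12 h, 40.1 at 24 h, 85.2 in the 48h-titled library and 7.08 and 10.8 in organoids. Immune markers summed to between 4.88 and 29.3 RPKM. Ptprc, the pan-leukocyte gene, was at 0 in 7 of the 8 libraries, and Cd3e and Nkg7 were at 0 in all 8. Cd68, another immune marker, stood at 21.7 and 7.57 RPKM in fresh cells, 22.8 in the 48h-titled library and 0 at 24 h. Csf1r stood at 5.21 and 10.9 RPKM in fresh cells and at most 1.92 RPKM in culture. Mesenchymal and stellate markers summed to at most 13.7 RPKM, and endothelial markers to at most 3.15 RPKM. These are bulk libraries, so fewer cells of a type and less RNA per cell cannot be told apart in any result below. The part of hepatocyte or immune cell RNA in the fresh levels was not tested.

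Promoter sequence was read from RefSeq on GRCm38.p6 as the 250 bases before each annotated start, and 9 of the 10 members had an entry. Windows of Fos, Jun, Atf3 and Maff are shown because each holds the letters of an element of the CRE type. Elements of this kind are known from the induction of Fos, Jun and Atf3. Capitals mark TGACGTCA (the full CRE), its core TGACGT (read as ACGTCA on the other strand), or TGACATCA, the variant known from the Jun promoter. All are written 5′ to 3′ on the strand of the gene, and the last base lies just before the start.
Fos, chr12:85473640-85473889, plus strand: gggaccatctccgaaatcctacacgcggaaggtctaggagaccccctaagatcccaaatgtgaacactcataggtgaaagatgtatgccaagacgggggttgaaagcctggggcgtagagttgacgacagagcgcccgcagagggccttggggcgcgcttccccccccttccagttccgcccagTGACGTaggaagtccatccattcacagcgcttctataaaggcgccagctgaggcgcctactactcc
Jun, chr4:95052223-95052472, minus strand: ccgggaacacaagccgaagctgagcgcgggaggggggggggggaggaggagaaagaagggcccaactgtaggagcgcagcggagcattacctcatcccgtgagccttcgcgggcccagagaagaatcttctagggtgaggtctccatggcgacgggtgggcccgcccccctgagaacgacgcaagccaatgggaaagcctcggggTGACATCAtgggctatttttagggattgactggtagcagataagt
Atf3, chr1:191183334-191183583, minus strand: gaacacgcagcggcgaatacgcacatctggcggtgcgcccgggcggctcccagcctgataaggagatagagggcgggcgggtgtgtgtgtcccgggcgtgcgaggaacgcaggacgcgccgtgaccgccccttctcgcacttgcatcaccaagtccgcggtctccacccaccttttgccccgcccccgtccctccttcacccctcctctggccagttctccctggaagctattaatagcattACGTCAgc
Maff, chr15:79347270-79347519, plus strand: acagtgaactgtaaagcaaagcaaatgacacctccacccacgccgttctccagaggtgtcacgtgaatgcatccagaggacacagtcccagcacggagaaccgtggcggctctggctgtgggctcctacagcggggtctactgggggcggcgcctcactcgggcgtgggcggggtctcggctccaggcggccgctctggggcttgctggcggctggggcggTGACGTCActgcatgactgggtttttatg

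In these windows the Fos core lies at positions −66 to −61 from the start, the Jun variant at −45 to −38, the Atf3 core at −8 to −3 and the Maff CRE at −29 to −22. Maff has 3 annotated windows, and another of them carries TGACATCA at −45 to −38. Searched on both strands in all 32851 RefSeq promoter windows of this length, TGACGTCA occurred in 1.55%, TGACGT, which also lies within TGACGTCA, in 6.47% and TGACATCA in 2.93%. The TRE letters TGANTCA, where N is any base, occurred in 6.75% of windows and in those of 0 of the 9 members with an entry. TATAAA was found for Fos at −33 to −28, against 12.4% of all windows. CCAAT was found for Jun at −65 to −61 and for Junb at −36 to −32, against 33.8% of all windows. The CArG box, the site of serum response factor, occurred in 1.47% of windows and in those of 0 of the 9 members. These matches describe letters and not bound sites, and elements outside the 250 bases were not searched.

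Apart from Batf3, each AP-1 gene had its highest level in freshly sorted cells and a lower one in every cultured library. In organoids, 7 of the 9 members that could be tested fell, by limma with Benjamini-Hochberg adjustment over all 12900 genes tested at a threshold of 0.05: Fos, Fosb, Fosl1, Jun, Junb, Atf3 and Maff. Over all genes tested, 4.94% were called lower in organoids than in fresh cells. At 12 h, 3 of the 9 fell, namely Fos, Fosb and Atf3, where 3.72% of all genes were called lower. No member was called higher, since the fitted changes of all 9 were below 0 in both comparisons, where 5.15% of all genes in organoids and 3.09% at 12 h were called higher. The median log2 change of the 9 members was −3.12 in organoids and −2.21 at 12 h, beside 0.17 and 0.24 for all genes tested. All 9 lay lower without overlap between the libraries of both groups in each comparison, which 26.6% of all genes did for organoids and 23.6% at 12 h. Fosb passed the expression filter, at least 1 RPKM in at least 2 libraries, only through the fresh libraries, so it had to be lower in culture. Batf3 did not pass it and was not tested. Both comparisons use the same fresh libraries, and without either of them 0 genes of the whole table passed in limma, although 1672 to 2163 had an unadjusted p under 0.05. Without organoid replicate 1, 2 members passed in organoids, and at 12 h 0 members passed without 12 h replicate 1 (5 at an unadjusted p under 0.05) and 1 without 12 h replicate 2.

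**Figure D1:**
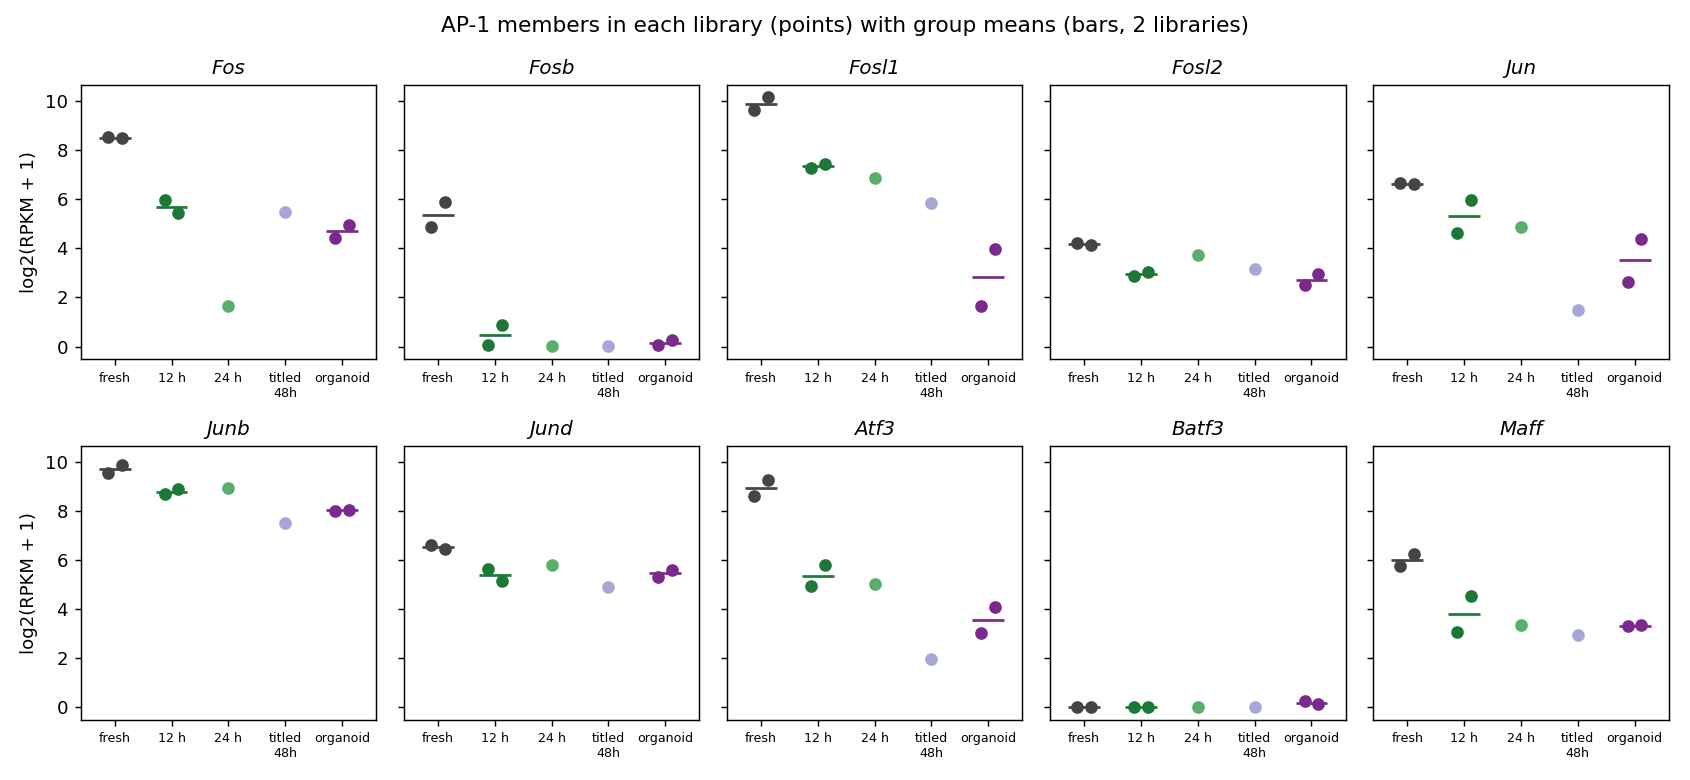
Level of each AP-1 gene in each library, as log2(RPKM + 1), in order of culture time with fresh cells on the left, where each point is 1 library. The 2 fresh libraries stand above every other library for all members except Batf3, which is at or near 0 throughout.

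Fos, the founding partner of Jun and the classical immediate early gene, lies at chr12:85473890-85477273 (GRCm38, as for all positions here, and like every member annotated as protein-coding) and carries the CRE core shown above. It stood at 371 and 354 RPKM in fresh cells, 61.0 and 42.0 RPKM at 12 h, 2.15 RPKM at 24 h, 43.4 RPKM in the 48h-titled library and 20.6 and 29.8 RPKM in organoids. Every cultured library lay below both fresh ones, and the 24 h library, with 97 Fos reads, lay far below the rest. Mean Fos was 25.2 ± 6.46 RPKM in organoids and 362 ± 11.9 RPKM in fresh cells (SD, n = 2 each), 14.4-fold lower. The fitted log2 change on the log2(RPKM + 1) scale was −3.82 in organoids (standard error, SE, 0.36, adjusted p = 0.0066) and −2.81 at 12 h (SE 0.36, adjusted p = 0.0239).

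Fosb, a Fos relative known from neurons and from immediate early responses, lies at chr7:19302696-19310051. It stood at 28.1 and 57.5 RPKM in fresh cells and then at 0.0535 and 0.818 RPKM at 12 h, 0.00834 RPKM at 24 h, 0.00732 RPKM in the 48h-titled library and 0.0347 and 0.206 RPKM in organoids. Outside fresh cells Fosb was close to undetected. These cultured values rest on 7 and 111 reads at 12 h, 1 read each at 24 h and in the 48h-titled library, and 3 and 26 reads in organoids, against 2674 and 10225 reads in fresh cells. The fitted log2 change was −5.21 in organoids (SE 0.53, adjusted p = 0.0075) and −4.90 at 12 h (SE 0.53, adjusted p = 0.0189). Since Fosb passed the expression filter only through the fresh libraries, it had to be lower in culture, and these p-values are no independent support for its fall. The 12 h libraries lay far apart, and those of organoids did so too.

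Fosl1, which encodes the Fos relative FRA1 and is known from migrating and wounded epithelium, lies at chr19:5447547-5455946. It stood at 792 and 1127 RPKM in fresh cells, 153 and 169.9 RPKM at 12 h, 115 RPKM at 24 h, 55.8 RPKM in the 48h-titled library and 2.16 and 14.7 RPKM in organoids. It thus had the highest mean of all members in fresh cells and stood at rank 7 of the 10 in organoids. Mean Fosl1 was 8.44 ± 8.88 RPKM in organoids and 959.6 ± 237 RPKM in fresh cells (SD, n = 2 each), 114-fold lower. The fitted log2 change of −7.07 (SE 0.71, adjusted p = 0.0075) in organoids ranked 4 among all decreases in the table. At 12 h the log2 change was −2.55 (95% interval −4.25 to −0.84, adjusted p = 0.0799) and did not pass. With a pseudocount of 5 it passed at an adjusted p of 0.0461, with libraries centred on their medians at 0.0382, and with only the groups compared in the fit at 0.0448, and over all alternatives the adjusted p ranged from 0.0382 to 0.458.

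Fosl2, which encodes FRA2, lies at chr5:32135801-32157842 and was the lowest Fos relative in fresh cells. It stood at 17.8 and 16.4 RPKM there, 6.31 and 7.08 RPKM at 12 h, 12.3 RPKM at 24 h, 7.94 RPKM in the 48h-titled library and 4.62 and 6.70 RPKM in organoids. Groups did not overlap, but the differences were the smallest of the Fos relatives, 3.02-fold lower in organoids and 2.55-fold lower at 12 h. The log2 change was −1.46 in organoids (95% interval −2.40 to −0.52, adjusted p = 0.0644) and −1.23 at 12 h (95% interval −2.18 to −0.29, adjusted p = 0.107). Neither passed as deposited, and both passed after median centring, at adjusted p-values of 0.0322 in organoids and 0.0395 at 12 h, and after quantile normalization, at 0.0278 and 0.0396. Their adjusted p ranged over all alternatives from 0.0278 to 0.353 in organoids and from 0.0395 to 0.445 at 12 h.

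Jun, the core partner of Fos and a gene that activates its own promoter, lies at chr4:95049034-95052222 downstream of the window shown above. It stood at 99.2 and 96.6 RPKM in fresh cells, 23.8 and 61.6 RPKM at 12 h, 28.1 RPKM at 24 h, 1.83 RPKM in the 48h-titled library and 5.26 and 19.6 RPKM in organoids. The fresh libraries were close to each other, and the libraries within the 12 h and organoid groups were far apart. Mean Jun was 12.4 ± 10.2 RPKM in organoids and 97.9 ± 1.81 RPKM in fresh cells (SD, n = 2 each), 7.87-fold lower, with a log2 change of −3.12 (SE 0.68, adjusted p = 0.0374). At 12 h the log2 change of −1.33 (95% interval −2.95 to 0.29, adjusted p = 0.265) did not pass, and its interval includes 0.

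Junb, a Jun relative that activates transcription less strongly than Jun and often opposes it, lies at chr8:84974484-84978718. It stood at 732 and 942 RPKM in fresh cells, 411 and 469.7 RPKM at 12 h, 486 RPKM at 24 h, 182 RPKM in the 48h-titled library and 256 and 258 RPKM in organoids. Junb thus remained abundant in every library while its level was lower in all cultures. Mean Junb was 257 ± 1.61 RPKM in organoids and 837 ± 148 RPKM in fresh cells (SD, n = 2 each), 3.25-fold lower, with a log2 change of −1.69 (SE 0.33, adjusted p = 0.0296). That call ended without the filter on low values (adjusted p = 0.0602), with only the groups compared in the fit (0.0586) and with the 48h-titled library grouped with 24 h (0.0823), within a range over all alternatives of 0.0214 to 0.261. At 12 h the log2 change of −0.92 (95% interval −1.71 to −0.12, adjusted p = 0.138) did not pass.

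Jund, the Jun family member expressed most evenly in resting cells, lies at chr8:70698949-70700616. It stood at 95.2 and 87.1 RPKM in fresh cells, 49.1 and 34.2 RPKM at 12 h, 55.1 RPKM at 24 h, 28.8 RPKM in the 48h-titled library and 38.2 and 47.7 RPKM in organoids. Its highest and lowest libraries were closer in ratio than those of any other tested member. The log2 change was −1.07 in organoids (95% interval −1.89 to −0.26, adjusted p = 0.0935) and −1.13 at 12 h (95% interval −1.95 to −0.32, adjusted p = 0.0947), and neither passed. The 12 h change passed after median centring (0.0424) and quantile normalization (0.0370), and the organoid change after quantile normalization (0.0369). Their adjusted p ranged over all alternatives from 0.0370 to 0.386 at 12 h and from 0.0369 to 0.370 in organoids.

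Atf3, a stress-induced bZIP factor that can repress or activate with Jun partners, lies at chr1:191170296-191218039. It stood at 387 and 603 RPKM in fresh cells, 29.5 and 53.9 RPKM at 12 h, 31.7 RPKM at 24 h, 2.95 RPKM in the 48h-titled library and 7.25 and 16.1 RPKM in organoids. Atf3 was the third most abundant member in fresh cells and dropped out of the leading 3 in every culture group. Mean Atf3 was 11.7 ± 6.24 RPKM in organoids and 495 ± 152 RPKM in fresh cells (SD, n = 2 each), 42.4-fold lower. At 12 h the mean was 41.7 ± 17.3 RPKM (SD, n = 2), 11.9-fold below fresh cells. The log2 change was −5.35 in organoids (SE 0.51, adjusted p = 0.0066) and −3.56 at 12 h (SE 0.51, adjusted p = 0.026). Without the filter on low values the 12 h call ended (adjusted p = 0.0694), as it did with the 48h-titled library grouped with 24 h (0.073), within a range over all alternatives of 0.0144 to 0.216.

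Maff, a small Maf protein that has a leucine zipper but no activation domain, lies at chr15:79346621-79359076 with the CRE shown above before an internal start. It stood at 53.4 and 73.9 RPKM in fresh cells, 7.28 and 22.1 RPKM at 12 h, 9.09 RPKM at 24 h, 6.62 RPKM in the 48h-titled library and 8.80 and 9.13 RPKM in organoids. The cultured libraries other than 12 h replicate 2 were close to each other. Mean Maff was 8.96 ± 0.23 RPKM in organoids and 63.7 ± 14.5 RPKM in fresh cells (SD, n = 2 each), 7.10-fold lower, with a log2 change of −2.68 (SE 0.54, adjusted p = 0.0316). At 12 h the log2 change of −2.21 (95% interval −3.50 to −0.91, adjusted p = 0.0604) did not pass, and it passed at 0.0472 with the filter set to a mean of 5 RPKM, at 0.0413 after median centring and at 0.0402 after quantile normalization, within a range over all alternatives of 0.0402 to 0.410.

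Batf3, a partner of Jun proteins known from dendritic cells and T cells, lies at chr1:191097847-191108945. It was listed at 0 in the 6 libraries of fresh, 12 h, 24 h and titled 48h cells and at 0.181 and 0.0929 RPKM in organoids, from 4 and 3 reads. In the libraries at 0, the 3 reads that a count of 0 allows would be 0.066 to 0.123 RPKM, which covers counting error only, so expression at the level of the organoid libraries was barely detectable at this depth. Dendritic markers were low as well: 7 markers summed to between 0 and 5.35 RPKM, with 3 to 7 of them at 0 in each library, and the highest sum came from Clec9a in 12 h replicate 2.

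**Figure D2:**
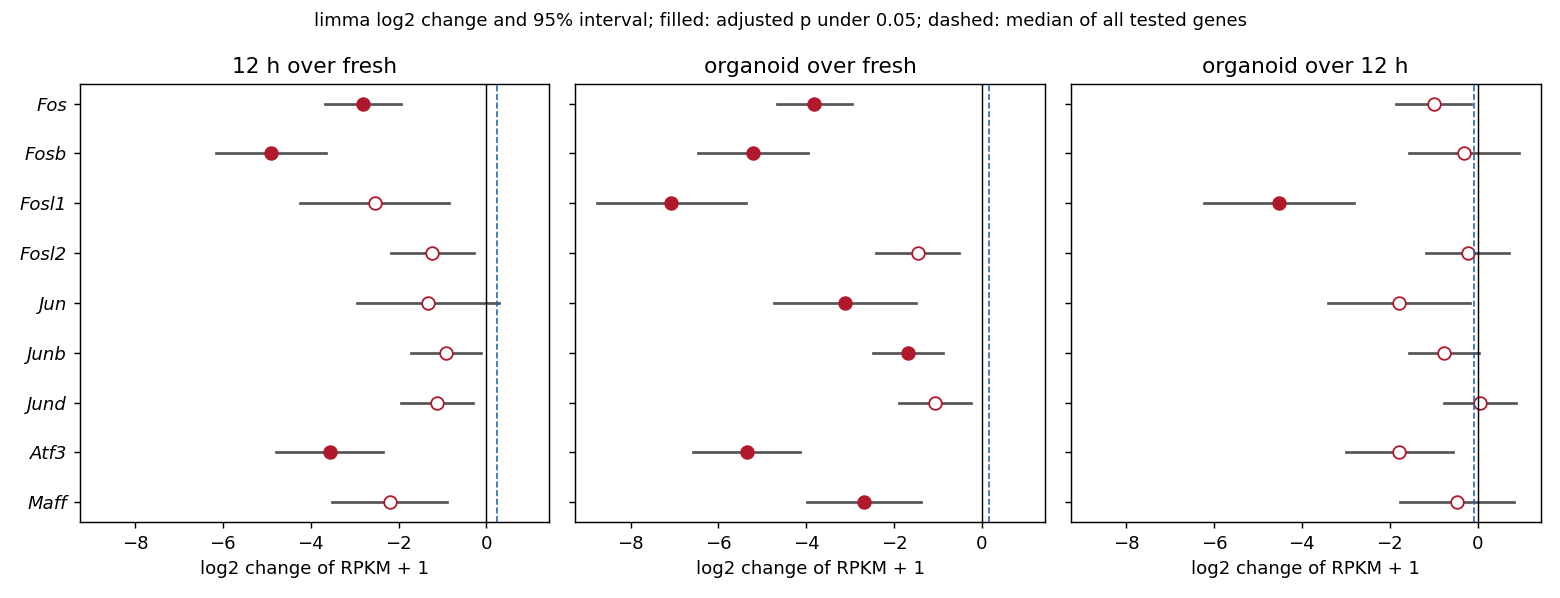
Fitted log2 change of each of the 9 tested AP-1 genes in 12 h cells over fresh cells, organoids over fresh cells and organoids over 12 h cells, with 95% intervals from limma. Filled points passed an adjusted p of 0.05 and the dashed line is the median of all genes tested. Changes run from −7.07 for Fosl1 in organoids over fresh cells to 0.06 for Jund in organoids over 12 h cells.

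Between 12 h and the organoid stage, Fosl1 was the member that fell further. Its level was 2.16 and 14.7 RPKM in organoids, against 153 and 169.9 RPKM at 12 h, 19.1-fold lower on average. The log2 change of −4.52 (SE 0.71, adjusted p = 0.0388) ranked 8 among all decreases, and over all genes 0.62% were called lower and 1.38% higher in this comparison. The call ended without any 1 library of the fresh and 12 h groups or without organoid replicate 1. It also ended without the filter on low values (adjusted p = 0.159), with only the groups compared in the fit (0.186) and with the 48h-titled library grouped with 24 h (0.0666), and the adjusted p ranged over all alternatives from 0.0206 to 0.195. The other 8 did not pass. Fos, Jun, Junb and Atf3 were lower in both organoid libraries than in either 12 h library, with log2 changes of −1.0 (95% interval −1.86 to −0.14), −1.79 (−3.41 to −0.18), −0.77 (−1.56 to 0.02) and −1.79 (−3.00 to −0.57). With Fosl1 these make 5 of 9 members lower without overlap, beside 24.1% of all genes. Fosb, Fosl2, Jund and Maff overlapped between the groups. Jund was at nearly the same level in both, 43.0 ± 6.71 RPKM in organoids and 41.7 ± 10.5 RPKM at 12 h (SD, n = 2 each), with a log2 change of 0.06 whose 95% interval of −0.76 to 0.87 leaves room for a change of either sign. The median log2 change of the 9 members was −0.77, beside −0.09 for all genes tested.

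The makeup of the family changed along with its level. Summed over the 10 members, RPKM was 2576 and 3357 in fresh cells, 740.1 and 861 at 12 h, 739 at 24 h, 329 in the 48h-titled library and 343 and 402 in organoids. The Fos family (Fos, Fosb, Fosl1 and Fosl2) held 46.9% and 46.3% of that sum in fresh cells, 29.7% and 25.5% at 12 h, 17.5% at 24 h, 32.5% in the 48h-titled library and 7.99% and 12.8% in organoids. The Jun family (Jun, Junb and Jund) held 36.0% and 33.5% in fresh cells, 65.3% and 65.7% at 12 h, 77.0% at 24 h, 64.6% in the 48h-titled library and 87.3% and 81.0% in organoids. Fos family RNA thus exceeded Jun family RNA in fresh cells alone, with a ratio of 1.30 and 1.38 there, 0.455 and 0.389 at 12 h, 0.227 at 24 h, 0.504 in the 48h-titled library and 0.0916 and 0.158 in organoids. The mean Fos family share was 10.4% ± 3.38 in organoids and 46.6% ± 0.41 in fresh cells (SD, n = 2 each), a difference of −36.2 percentage points. Groups did not overlap, and with 2 libraries against 2 the exact two-sided permutation test cannot give a p below 0.33.

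Junb made up most of the Jun family everywhere, and its share of all 10 members was 74.6% and 64.2% in organoids, against 28.4% and 28.1% in fresh cells. Jund held 11.1% and 11.9% in organoids and 3.69% and 2.60% in fresh cells, since its level was lower by less than that of the others. Within the Fos family, Fosl1 supplied 65.5% and 72.5% in fresh cells, 69.4% and 77.3% at 12 h, 88.8% at 24 h, 52.1% in the 48h-titled library and 7.87% and 28.6% in organoids. Fos supplied 75.2% and 57.9% in organoids, against 30.7% and 22.7% in fresh cells. Fosl1 therefore led the Fos family in every library but those of organoids, where Fos did. The size of that lead depends on the scaling to length. With RPKM multiplied by annotated exon length, Fos supplied 49.6% and 42.1% and Fosl2 45.7% and 39.1% of the Fos family in organoids. For Fosl1 that length is 2033 bases, while its reads came out whole at 1707. The ratio of Fosl1 to Fos was 2.14 and 3.19 in fresh cells, 2.50 and 4.04 at 12 h, 53.5 at 24 h, 1.29 in the 48h-titled library and 0.105 and 0.495 in organoids. These ratios describe RNA per length and not protein.

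**Figure D3:**
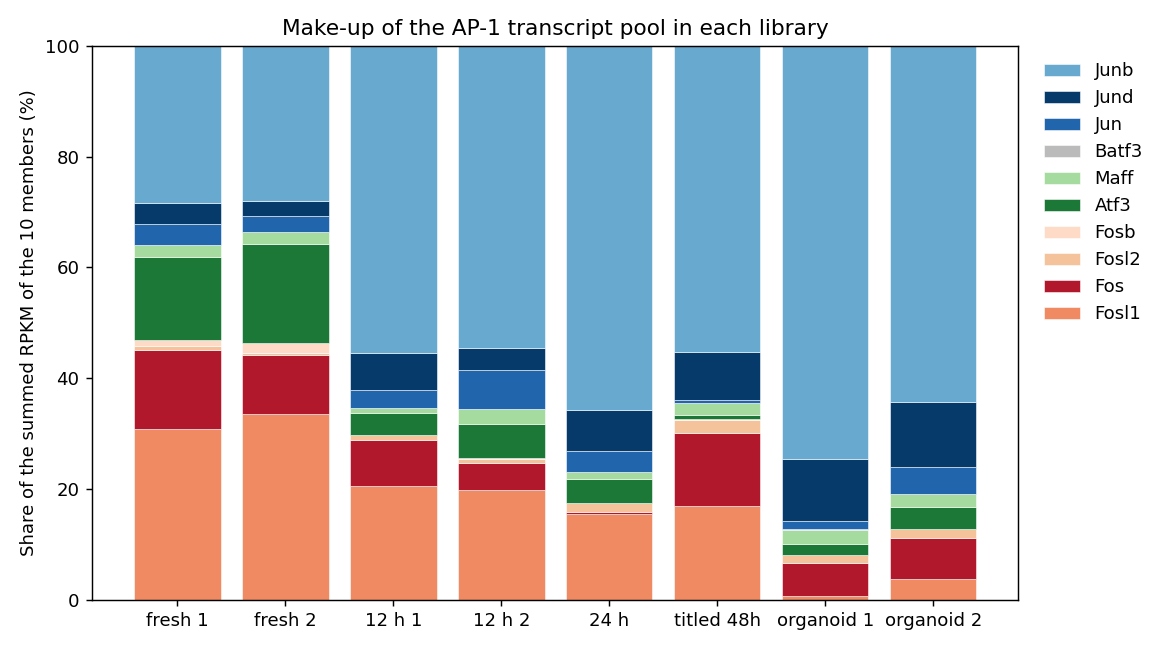
Share of each AP-1 gene in the summed RPKM of the 10 members, in percent, for each library in order of culture time. Fos family genes hold 46.9% and 46.3% in the fresh libraries and 7.99% and 12.8% in the organoid libraries, and Junb holds 74.6% and 64.2% in organoids.

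By mean RPKM, the order in fresh cells was Fosl1, Junb, Atf3, Fos, Jun, Jund, Maff, Fosb, Fosl2 and Batf3. Fosl1 and Junb overlapped there, as did Maff and Fosb, and all other neighbours were apart. At 12 h, Junb came first and Fosl1 next, clear of the others, followed by Fos, Jun, Atf3 and Jund, each of which overlapped with its neighbour. In organoids, Junb led, followed by Jund and then Fos, each apart from the next, while Jun, Atf3, Maff, Fosl1 and Fosl2 followed with overlapping neighbours. Junb also led at 24 h, where Fos stood at rank 8, and in the 48h-titled library, where Jun stood at rank 8 and Fos at rank 3.

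The 2 lone libraries have no replicate and were not tested. At 24 h, 6 of the 9 members were at least 2-fold below the fresh mean on the log2(RPKM + 1) scale, where 27% of all genes were, and all 9 were below both fresh libraries. Fosl2, Junb and Jund were the other 3, with log2 differences of −0.44, −0.77 and −0.71. The library titled 48h had 9 of the 9 at least 2-fold lower, where 14.1% of all genes were. It carried the lowest Jun, Junb, Jund and Atf3 of the 8 libraries, with log2 differences from the fresh mean of −5.13, −2.18, −1.63 and −6.94, while the 24 h library carried the lowest Fos, at −6.85. Fos and Jun thus moved apart: Fos was at 2.15 RPKM in the 24 h library and 43.4 RPKM in that titled 48h, and Jun at 28.1 and 1.83 RPKM. The 24 h library also had the fewest genes at 1 RPKM or more, and the part of that in its low Fos was not tested.

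The list of other immediate early genes, which also holds the heat shock genes Hspa1a and Hspa1b, followed the same direction. Whether its genes share a signal with Fos was not tested. Of 18 tested, 10 fell and 0 rose in organoids and 7 fell and 0 rose at 12 h in limma, and at an unadjusted p under 0.05 the counts were 15 and 10 lower with 0 higher in both. Egr2 and Hspa1b are counted among the falls in both comparisons. Egr2 passed the expression filter only through the fresh libraries, so it had to be lower in culture. Hspa1b would not have passed without the fresh libraries either, since organoid replicate 2, at 1.57 RPKM, was the only cultured library at 1 RPKM or more. The median log2 change of the list was −2.56 in organoids and −1.69 at 12 h. For this and the following lists, the shares of all genes called lower were 4.94% in organoids and 3.72% at 12 h. Called higher were 5.15% and 3.09%. Egr1, a zinc finger factor induced beside Fos, was at 13.1 ± 10.2 RPKM in organoids and 425 ± 93.6 RPKM in fresh cells. Its log2 change in limma was −5.12 (SE 0.62, adjusted p = 0.011). Zfp36, which speeds the decay of cytokine mRNAs, was at 9.05 ± 1.45 RPKM in organoids and 306 ± 47.3 RPKM in fresh cells (log2 change −4.93) and at 28.3 ± 4.53 RPKM at 12 h (log2 change −3.39, SE 0.34, adjusted p = 0.0189). Ccn1, a matrix protein gene and target of serum response factor and YAP, was at 88.5 ± 97.5 RPKM in organoids and 1115 ± 642 RPKM in fresh cells (log2 change −4.16, SE 0.996, adjusted p = 0.0479). The heat shock genes Hspa1a and Hspa1b fell in both comparisons, with log2 changes of −4.59 and −2.45 in organoids and −2.37 and −2.39 at 12 h. They are near-identical copies whose reads can be split between them, so each value is uncertain. At 12 h, the antiproliferative gene Btg2 and the nuclear receptor gene Nr4a1 were at 24.5 ± 4.17 and 18.0 ± 1.66 RPKM, against 175 ± 7.40 and 103 ± 8.61 RPKM in fresh cells (log2 changes −2.80 and −2.45; SD, n = 2 each throughout this paragraph). Nr4a1 also fell in organoids (log2 change −3.15), while Btg2 did not pass there (log2 change −1.65).

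Upstream of AP-1 stand the MAP kinases and the phosphatases that oppose them. The difference between the 2 lists was not tested, and 4.94% of all genes were called lower in organoids and 3.72% at 12 h. Of 20 MAP kinase pathway genes tested, 1 fell and 0 rose in organoids, and 0 passed at 12 h in limma, where 1 was lower and 2 were higher at an unadjusted p under 0.05. The median log2 change was −0.05 in organoids and −0.02 at 12 h. The 1 that fell was Map2k3, a kinase that activates p38, at 48.1 ± 33.6 RPKM in organoids and 392 ± 95.8 RPKM in fresh cells (SD, n = 2 each; log2 change −3.17, SE 0.54, adjusted p = 0.0212). Of 9 MAP kinase phosphatases, which switch the kinases off and are themselves induced by them, 4 fell in organoids and 1 fell and 1 rose at 12 h, with median log2 changes of −1.99 and −1.21. Dusp1 was at 49.0 ± 2.26 RPKM in organoids, 122 ± 70.4 RPKM at 12 h and 559 ± 27.3 RPKM in fresh cells, and fell in both comparisons (log2 changes −3.49 and −2.31). Dusp5, Dusp8 and Dusp10 fell in organoids with log2 changes of −4.39, −3.40 and −2.45. Dusp7 was the exception, at 18.7 ± 0.60 RPKM at 12 h and 2.27 ± 0.011 RPKM in fresh cells (log2 change 2.59, SE 0.41, adjusted p = 0.0285).

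Of 6 genes for serum response factor and its cofactors, Srf itself fell in organoids, at 2.23 ± 1.88 RPKM there and 16.0 ± 4.51 RPKM in fresh cells (SD, n = 2 each; log2 change −2.51, SE 0.58, adjusted p = 0.0433). At 12 h 0 of the 6 passed in limma, where 1 was lower and 3 were higher at an unadjusted p under 0.05. The 1 lower there was Srf, at 1.40 and 2.39 RPKM (log2 change −2.55, SE 0.58, adjusted p = 0.0504). The 5 tested regulators that act on AP-1 proteins, such as the ubiquitin ligases Fbxw7 and Cop1, had 0 calls in limma at either time, and at an unadjusted p under 0.05 1 was higher in organoids and 2 at 12 h. Median log2 changes of these 2 lists were 0.14 and 0.36 in organoids and 0.99 and 0.47 at 12 h.

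Of 20 genes known as AP-1 targets that were tested, 6 fell and 1 rose in organoids and 4 fell and 0 rose at 12 h in limma, where 5 were lower and 1 was higher at an unadjusted p under 0.05 at 12 h. The median log2 change was −0.23 in organoids and −0.98 at 12 h. Ivl, a protein of the cornified envelope of skin and a classical AP-1 target in keratinocytes, was at 1.84 and 1.26 RPKM in organoids, 1.71 and 0 RPKM at 12 h, and 54.0 and 60.3 RPKM in fresh cells, with log2 changes of −4.52 in organoids (SE 0.58, adjusted p = 0.0119) and −5.14 at 12 h (SE 0.58, adjusted p = 0.0189). Lif, a cytokine of the IL6 family, was at 5.46 ± 5.44 RPKM in organoids, 5.39 ± 1.79 RPKM at 12 h and 109.6 ± 34.4 RPKM in fresh cells (log2 changes −4.38 and −4.11). Plaur, the urokinase receptor, was at 75.7 ± 77.6 RPKM in organoids and 1112 ± 99.5 RPKM in fresh cells (log2 change −4.38, SE 0.78, adjusted p = 0.0232). The EGF receptor ligand Hbegf was at 45.1 ± 7.63 RPKM in organoids, 203 ± 20.6 RPKM at 12 h and 707 ± 170 RPKM in fresh cells, and fell in both comparisons with fresh cells (log2 changes −3.93 and −1.78; SD, n = 2 each). Cdkn1a, an inhibitor of cell division and also a p53 target, fell in both comparisons, with log2 changes of −1.67 in organoids and −1.87 at 12 h.

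The 1 target that rose in organoids was Ereg, another EGF receptor ligand, named after its values were seen. Ereg passed the expression filter only through the organoid libraries, so it had to be higher there than in fresh or 12 h cells. It was at 2.08 and 2.90 RPKM in organoids and 0 and 0.0681 RPKM in fresh cells (log2 change 1.75, SE 0.29, adjusted p = 0.020). In organoids over 12 h cells, 3 list genes passed in limma and are likewise named after their values were seen. Over all genes tested, 0.62% were called lower and 1.38% higher there, and the rate in the lists was not tested against this. Hbegf had a log2 change of −2.15, the immediate early zinc finger gene Klf6 one of −2.07 and Ereg one of 1.79.

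Of 24 other bZIP factors tested, 5 fell and 0 rose in organoids and 3 fell and 0 rose at 12 h in limma, where 9 and 7 were lower and 0 and 1 higher at an unadjusted p under 0.05. The median log2 change was −0.82 in organoids and −0.37 at 12 h. Bach2 is among those lower at an unadjusted p under 0.05 in both comparisons. It passed the expression filter only through the fresh libraries, so it had to be lower in culture. Mafk, a small Maf like Maff, was at 4.17 ± 2.60 RPKM in organoids, 9.71 ± 6.09 RPKM at 12 h and 70.1 ± 21.4 RPKM in fresh cells (SD, n = 2 each). Its log2 changes were −3.84 and −2.83. Mafg, also a small Maf, did not pass in either comparison (log2 changes −1.05 in organoids and −0.04 at 12 h). Creb5, a CREB relative that pairs with Jun, fell in both comparisons (log2 changes −3.20 and −2.13). Atf4, the main factor of the integrated stress response, was at 77.4 ± 7.79 RPKM in organoids and 448 ± 155 RPKM in fresh cells (SD, n = 2 each; log2 change −2.48, SE 0.40, adjusted p = 0.0181), and Atf5, which acts in the same response, fell by 2.77. Crem, a cAMP-responsive factor with repressor isoforms, fell at 12 h by 2.16.

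**Figure D4:**
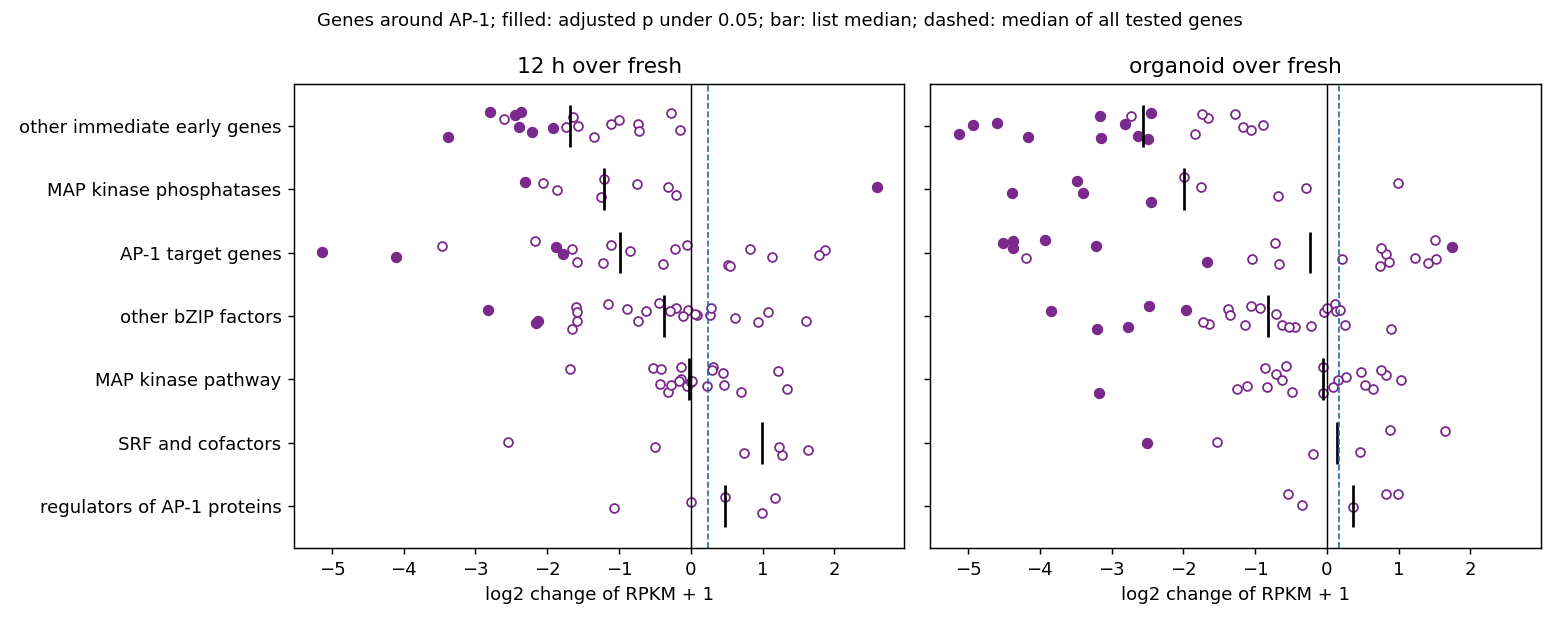
Fitted log2 change of each tested gene of the 7 lists around AP-1 in 12 h cells over fresh cells and organoids over fresh cells, where each point is 1 gene and each bar the median of its list. Filled points passed an adjusted p of 0.05 and the dashed line is the median of all genes tested. Other immediate early genes lie lowest, with medians of −1.69 at 12 h and −2.56 in organoids, and the MAP kinase pathway genes centre near 0.

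Genes most like 4 of the members were sought by Pearson correlation of log2(RPKM + 1) over the 8 libraries, among 6981 genes that averaged 5 RPKM or more. All genes share these libraries, with the large step between fresh cells and culture, so a high r is a description of that pattern. Nearest to Fos were Kcnk5 (r = 0.979), Mrps6 (0.977) and Chac1 (0.976). Chac1, a glutathione-degrading enzyme of the stress response, shared the low 24 h level of Fos, at 0.0636 RPKM there and 174 and 176 RPKM in fresh cells. Nearest to Fosl1 were Stk40 (r = 0.993), Tmem184a (0.990) and Crp (0.989), to Jund among others Ly96 (0.961) and Klf5 (0.958), and to Atf3 Sqstm1 (0.991), Usp43 (0.990) and Hspb1 (0.982). Sqstm1, the autophagy receptor p62, was at 2315 and 2921 RPKM in fresh cells and at 166 and 187 RPKM in organoids.

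Several members share exonic bases with a neighbour, and since the labels do not say whether strand was used, reads there cannot be told apart. Ccdc85b shares 1163 bases with Fosl1 and stood between 24.5 and 50.6 RPKM, above the Fosl1 level in both organoid libraries, so part of that low Fosl1 level could not be separated from its neighbour. Prdx2, which shares 173 bases with Junb, was at 811 and 224 RPKM in organoids and 66.5 and 40.7 RPKM in fresh cells, the opposite direction to Junb. Junos, antisense to Jun over 232 bases, was at most 0.599 RPKM, and Gm11175, which shares 877 bases with Jund, was listed at 0 in all 8 libraries.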

How the data were processed

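RNA of 8 EpCAM-sorted mouse liver ductal cell libraries was extracted, copied by Smart-seq2 and tagmented by Nextera XT, per the labels' protocols. The authors deposited 1 RPKM value per gene and library, and the submitters' processing notes name the build GRCm38 and the package edgeR. Not given in the sources used here are the aligner, the counter, the annotation and the strandedness.

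Symbols and positions came from GENCODE M21, which named 47224 of 47729 identifiers. Small RPKM values are whole multiples of 1 read for 89.3% to 91.8% of values within 0.02, which gave the effective reads. For Fosl1, Junb, Jund and Maff the reads came out whole only at a gene length other than that of M21, and that length was used for their reads.

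Genes that reached 1 RPKM in 2 or more libraries (12900) were tested as log2(RPKM + 1) with limma 3.58.1 in R 4.3.3, with 5 groups, no covariate, eBayes with trend, 3 residual and 3.65 prior degrees of freedom, two-sided tests and Benjamini-Hochberg adjustment at 0.05. Fold changes on this scale understate the change of low genes. In 10 simulated tables of 12900 genes with 200 changed, the tests of 12 h with fresh, organoid with fresh and organoid with 12 h recovered 62.4%, 57.8% and 59.9% of changes of 4 on the log2 scale, and 5.7%, 7% and 5.5% of changes of 2. Changes of 2 were therefore mostly missed in the simulated tables. These shuffled the spreads between genes and changed fewer genes than were called in the data, so recovery in the data can differ. In the data some smaller changes did pass, such as that of Junb in organoids over fresh cells (log2 change −1.69).

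All members were named whatever their result, with up to 4 passing genes per list and comparison by size of change, and the 3 genes most correlated with each of Fos, Fosl1, Jund and Atf3, of which 1 is not reported here. The members and the 7 lists of 117 entries were chosen with earlier results of these data known. Alternatives were pseudocounts of 0.1 and 5, other filters, scalings and groupings, a replicate block and leaving out each library.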

Additional observations from a re-analysis of the deposited data

Results flagged for a closer look

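The change of Fosl1 from fresh cells differed between organoids and 12 h cells: the log2 change in organoids over 12 h cells was −4.52 (SE 0.71, adjusted p = 0.0388, limma with Benjamini-Hochberg adjustment), with 2.16 and 14.7 RPKM in organoids and 153 and 169.9 RPKM at 12 h. It was picked out by the test of that difference, and both organoid libraries were lower than both 12 h libraries. The part that reads of the overlapping gene Ccdc85b take in it was not tested.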

How the results depend on the processing

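No alternative turned the direction of a member in organoids or 12 h cells over fresh cells. In organoids over 12 h cells, leaving out 1 library turned 5 uncalled log2 changes, whose range was −0.70 to 0.085 for Fosb, −0.45 to 0.0034 for Fosl2, −0.20 to 0.31 for Jund and −1.22 to 0.27 for Maff. Members called at 12 h numbered 7 with libraries centred on their medians, 6 after quantile normalization and 1 with the 48h-titled library grouped with 24 h, and in organoids over fresh cells 4 without the filter on low values and 4 with that grouping. In organoids over 12 h cells 0 members passed in limma without the filter, with only the groups compared or with that grouping (5, 2 and 1 at an unadjusted p under 0.05). Genes called at 12 h, 878 as reported, were 423 without the filter and 461 with the grouping. Those in organoids over fresh cells, 1301 as reported, were 740 without the filter and 762 with the grouping. Those in organoids over 12 h cells, 258 as reported, were 418 with a pseudocount of 0.1, 141 with 5, 151 with the filter at a mean of 5 RPKM, 8 with the grouping and, in limma, 0 without the filter (3379 unadjusted) and 0 with only the groups compared (1686 unadjusted). The cause was not tested.

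Leaving out each library in turn gave 0 to 4 members at 12 h, 0 to 6 in organoids over fresh cells and 0 to 1 in organoids over 12 h cells, and 0 to 1082, 0 to 1418 and 0 to 321 genes, with a lone library assumed to vary like the other groups. Calls of single members ended more often there, by construction with fewer samples. The difference in the Fos family share ranged from −38.6 to −33.8 points in organoids and −21.1 to −16.9 at 12 h, that of the Jun family from 46.2 to 52.5 and 29.5 to 32.0, and that of Jund from 7.80 to 8.90 and 0.828 to 3.49. With RPKM multiplied by annotated exon length, organoid differences were −32.5 points for the Fos family, 44.8 for the Jun family and 5.82 for Jund. For Fosl1, Junb, Jund and Maff that length is not the one at which reads came out whole. For Jund it is 1668 bases against 2878, so the Jund value on this scale rests on an uncertain length. Median centring split the calls into 322 higher and 806 lower at 12 h and 548 and 825 in organoids, against 398 and 480 and 664 and 637 as reported, and the filter at a mean of 5 RPKM split them into 403 and 197 and 707 and 433.

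Replicate numbers are shared by the labels but are not said to pair libraries. Deviations of same-numbered libraries correlated at 0.195 (12 h and fresh), 0.224 (organoid and fresh) and 0.0175 (organoid and 12 h). With the replicate block 722, 1422 and 205 genes were called and 3, 7 and 1 members, as many members as without it.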
